A study of Mus musculus with 8 samples.

Results

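The comparison described here asked which genes changed differently in CD8+ T cells labelled KO and in those labelled WT between day 0 and day 5 of culture. It is the genotype by day contrast, the KO minus WT difference at day 5 minus the KO minus WT difference at day 0, which equals the culture response of the KO-labelled cells minus that of the WT cells on the log2 scale. All 8 of 8 RNA-seq libraries of the series were members, 2 in each of 4 groups (WT at day 0, KO at day 0, WT at day 5 and KO at day 5). Of 48321 gene symbols listed in each library, 12597 had enough counts to be tested.

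The cells were peripheral CD8+ T cells taken from the spleen of C57BL/6 mice, sorted, and compared as they were at day 0 or after in vitro culture to day 5. The KO libraries came from Satb1 F/F; E8I-cre mice, which carry floxed alleles of Satb1 and a Cre recombinase. The E8I enhancer comes from the Cd8 locus and is active in mature CD8+ T cells, so deletion through it would start late in T-cell life and only in such cells. The alleles of the WT mice, the age of the mice, the stimulus and medium of the culture, and the Satb1 exons removed are not given in the sources used here. Nor is it given whether the 2 libraries of a group came from separate mice or cultures, so the p-values measure the spread between these libraries, which may be technical.

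SATB1 is a nuclear protein that binds AT-rich DNA and takes part in the folding of chromatin, and it is abundant in thymocytes and in naive T cells. When a naive CD8+ T cell is activated it grows and divides, and it makes cytotoxic molecules and new surface receptors. Inhibitory receptors such as CTLA-4 and PD-1 belong to these, and they limit the response. A genotype by day contrast separates genes that respond to culture differently from genes that simply differ between the genotypes at both days.

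The libraries held between 4170126 and 11117971 reads assigned to genes, with KO-labelled day 0 replicate 1 the deepest, and the biological coefficient of variation over all 8 was 14.95%. Summed markers of CD8+ T cells lay between 15644 and 19981 CPM (counts scaled to the size of each library) in every library. B-cell markers summed to 2075 to 2488 CPM at day 0 and 1463 to 1642 CPM at day 5, carried by Ighm, while Ms4a1 and Pax5 were near 0. Natural killer and erythroid markers stayed at or below 14.2 and 1.65 CPM. In bulk samples such as these, fewer cells of a type and less RNA per cell cannot be told apart.

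Of the 12597 genes, 20 (0.159%) differed in their culture response at a false discovery rate (FDR) of 0.05 in edgeR's quasi-likelihood test with Benjamini-Hochberg adjustment. The response was higher in the KO-labelled cells for 10 genes (0.0794%) and lower for 10 (0.0794%). The median contrast over all tested genes was 0.02 on the log2 scale, with quartiles of -0.32 and 0.36 and a median standard error of 0.36. The contrasts of the called genes ran from 1.10 to 5.58 in size. At an unadjusted p under 0.05 there were 872 genes higher (6.92%) and 690 lower (5.48%).

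Culture itself moved far more genes. In WT cells 3112 genes (24.7%) were higher and 2969 (23.6%) lower at day 5 than at day 0, and in KO-labelled cells 3296 (26.2%) were higher and 3029 (24.0%) lower. Between the genotypes, 115 genes (0.913%) were higher and 112 (0.889%) lower in the KO-labelled cells at day 0, and 165 (1.31%) were higher and 40 (0.318%) lower at day 5. These 4 comparisons and the contrast share their libraries and are not independent of each other. In particular, the day 0 difference enters the contrast with the opposite sign, so a gene that starts high in the KO-labelled cells has a low contrast unless it ends as high.

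How the 20 calls came about differed between them. For 6 of the 10 genes with the higher response (Capg, Oit3, Neb, Rab1b, Hacd3 and Atxn10) the genotypes differed at day 0, where the KO-labelled cells were lower, and were not called different at day 5. For the other 4 (Tlr2, Fam46a, Chst12 and Mfsd10) the genotypes were called different only at day 5, where the KO-labelled cells were higher. Of the 10 genes with the lower response, 7 (Ctla4, Klrk1, Anxa2, Mcoln2, P2ry10, Adk and Pttg1) were higher in the KO-labelled cells at day 0 and not called at day 5. Tcrg-C2 was higher at both days, and Satb1 was lower in the KO-labelled cells at day 5 only.

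The number of calls depended on single libraries. It was 0 without WT day 0 replicate 1, 1 without WT day 0 replicate 2 (Anxa2), 3 without KO-labelled day 5 replicate 1 (Tlr2, Ctla4 and Pttg1) and 4 without KO-labelled day 5 replicate 2 (the same 3 and Klrk1). Without WT day 5 replicate 1 there were 41 calls, 16 of them among the 20. In these fits the group left with 1 library is assumed to vary like the others.

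**Figure D1:**
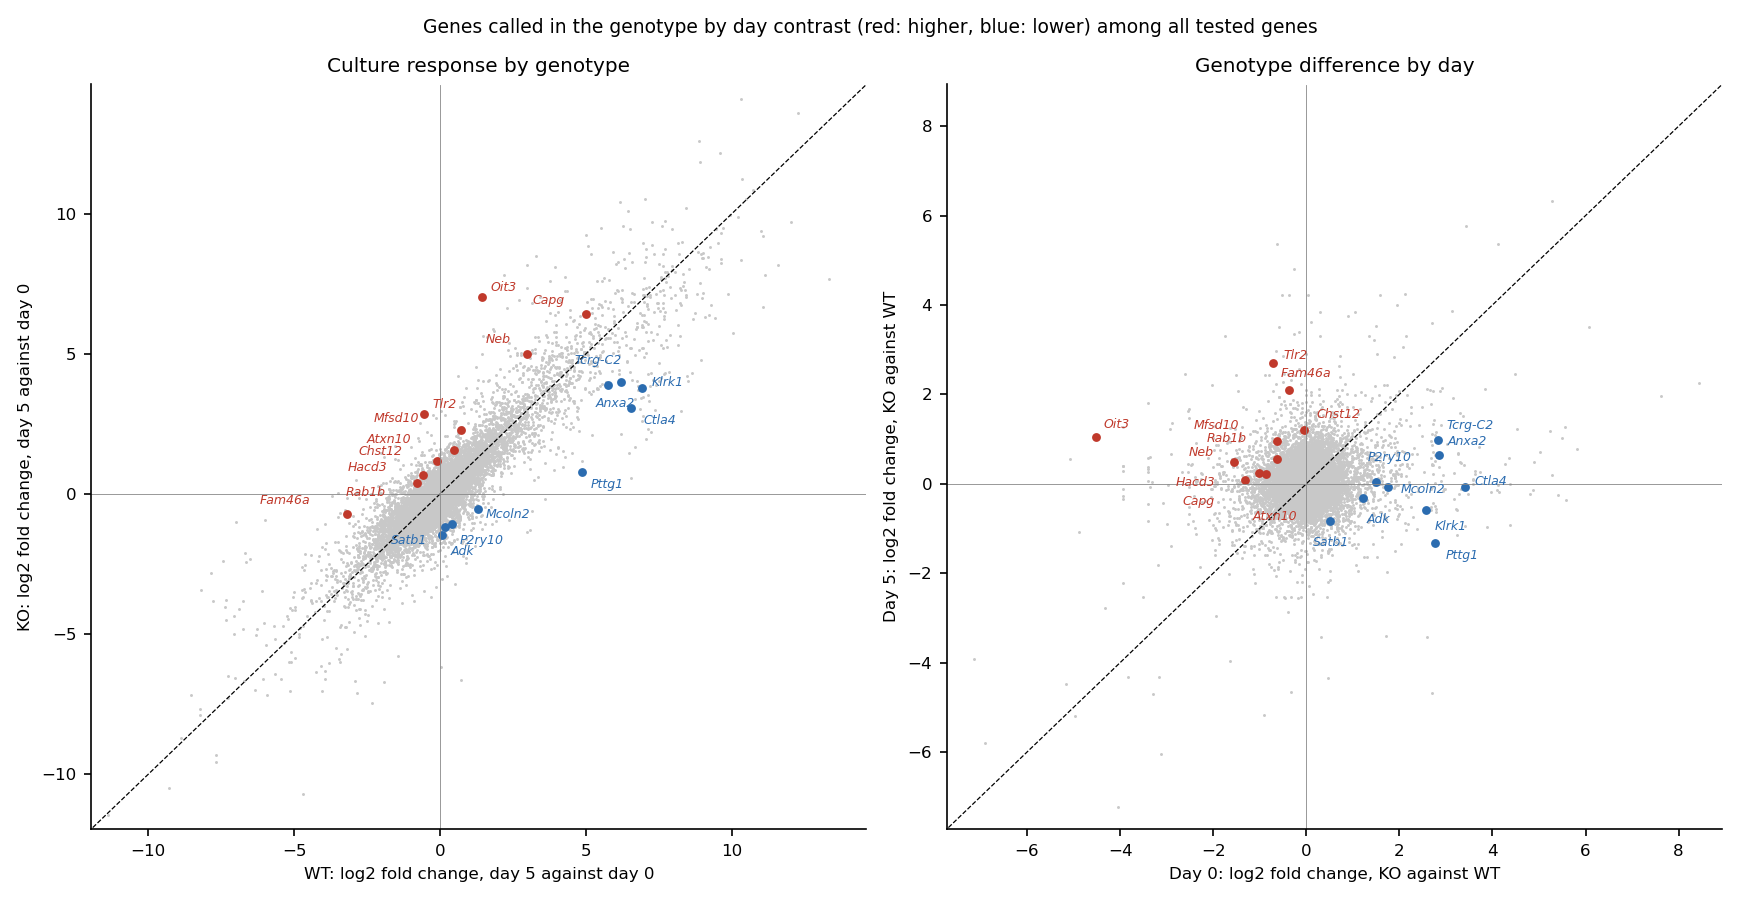
The left panel plots the culture response (day 5 minus day 0, log2 fold change) of WT cells on the x axis against that of KO-labelled cells on the y axis, and the right panel plots the KO minus WT difference at day 0 against that at day 5. Each point is a tested gene, 19 of the 20 called genes are coloured red (higher response in KO-labelled cells) or blue (lower), and the dashed line marks equal values, from which Oit3 (5.58) and Pttg1 (-4.07) lie farthest among the called genes.

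Satb1, the targeted gene, was read first as a check of the labels. It lies on the minus strand at chr17:51736187-51833290 of GRCm38. At day 0 it stood at 97.8 and 91.6 CPM in WT libraries and at 144 and 125 CPM in KO-labelled libraries, and at day 5 at 96.5 and 116 CPM in WT and 56.5 and 62.3 CPM in KO-labelled libraries. Both KO-labelled libraries were thus above both WT libraries at day 0 and below both at day 5. The day 0 difference did not pass the test (log2 fold change 0.51, FDR 0.125), and the day 5 difference did (1.79-fold lower, FDR 0.0162). Since Satb1 was not lower in KO-labelled libraries at day 0, and counts over the whole gene do not show whether the floxed exons were lost, the groups are called by their labels here.

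Satb1 was itself among the called genes. In KO-labelled cells it fell 2.27-fold in culture (FDR 3.16e-05), while the WT change was 0.16 on the log2 scale (FDR 0.391), a contrast of -1.34 ± 0.21 (SE, FDR 0.0269). Among transcripts of unverified type annotated inside Satb1 on the same strand, 4 were tested and had contrasts of the same sign, and they are named after their values were seen. They were E430014B02Rik (-1.80, FDR 0.0565), C230085N15Rik (-1.64, FDR 0.122), 5830444F18Rik (-1.95, FDR 0.057) and Gm37248 (-2.19, FDR 0.057). None of the 8 other tested genes within 60 kb of Satb1 was called, and all 8 contrasts were below 0. Because these transcripts overlap Satb1 on its own strand, their reads and those of Satb1 introns cannot be told apart in such counts.

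The largest group of called genes was already raised in the KO-labelled cells at day 0. CTLA-4, the inhibitory receptor for CD80 and CD86, is made from Ctla4 (chr1:60887000-60915832). Ctla4 stood at 3.22 and 2.71 CPM in WT day 0 libraries, at 40.3 and 21.7 CPM in KO-labelled day 0 libraries, at 295 and 272 CPM in WT day 5 libraries and at 276 and 262 CPM in KO-labelled day 5 libraries. The groups did not overlap at day 0, and at day 5 the KO-labelled values overlapped those of WT. Culture raised Ctla4 94.1-fold in WT cells (FDR 3.42e-09) and 8.47-fold in KO-labelled cells (FDR 1.85e-07), a contrast of -3.47 ± 0.38 (FDR 0.00794). The day 0 difference was 10.6-fold (FDR 0.000106). Summed markers of CD4+ T cells, a lineage in which regulatory cells express Ctla4, were also higher in KO-labelled libraries at day 0, at 151 to 155 CPM against 83.9 to 94.1 CPM in WT, and at day 5, where Ctla4 overlapped between the genotypes, at 47.6 to 68.9 CPM against 12.5 to 20.2 CPM. Trat1 carried that sum and Cd4 itself stayed between 0 and 0.964 CPM in all libraries. The part of such cells in the Ctla4 values was not tested.

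Klrk1, which encodes the activating receptor NKG2D, followed the same course at lower levels. It was measured at 0.894 and 0.904 CPM in WT day 0 libraries, from 5 and 4 counts, and at 4.55 and 6.79 CPM in KO-labelled day 0 libraries, from 53 and 37 counts. At day 5 it reached 103 and 119 CPM in WT and 68.6 and 79.7 CPM in KO-labelled libraries. The order of the genotypes turned over between the days, but the day 5 difference was not called (log2 fold change -0.58, FDR 0.142). Culture raised Klrk1 120.4-fold in WT and 13.6-fold in KO-labelled cells, a contrast of -3.15 ± 0.43 (FDR 0.0113).

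Anxa2 encodes annexin A2, which binds phospholipids in the presence of calcium. Its levels were 23.97 and 46.1 CPM in WT and 252 and 249.8 CPM in KO-labelled libraries at day 0, then 2862 and 2216 CPM in WT and 4016 and 3891 CPM in KO-labelled libraries at day 5. KO-labelled libraries were above WT at both days, although at day 5 the difference was not called (log2 fold change 0.64, FDR 0.149). The 73.2-fold rise in WT and the 15.8-fold rise in KO-labelled cells gave a contrast of -2.21 ± 0.30 (FDR 0.0113). This was the call that remained when WT day 0 replicate 2 was left out.

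Tcrg-C2, a constant region gene of the T-cell receptor gamma chain, was the called gene that was higher in KO-labelled cells at both days. It read 3.04 and 3.17 CPM in WT and 19.99 and 25.1 CPM in KO-labelled libraries at day 0, and 166 and 167 CPM in WT against 288 and 371 CPM in KO-labelled libraries at day 5. The groups of the 2 genotypes did not overlap on either day. A 7.15-fold difference at day 0 (FDR 6.72e-05) had narrowed to 1.98-fold at day 5 (FDR 0.00778), and the contrast was -1.85 ± 0.30 (FDR 0.0303). Tcrg-C2 has close copies in Tcrg-C1 and Tcrg-C3, so how reads were split among these is uncertain.

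For Mcoln2 and P2ry10 culture acted in opposite directions in the genotypes. Mcoln2, a cation channel of endosomes and lysosomes, stood at 28.8 and 34.8 CPM in WT and at 106 and 109 CPM in KO-labelled libraries at day 0. At day 5 it was at 72.1 and 82.4 CPM in WT and at 75.05 and 72.5 CPM in KO-labelled libraries. It thus rose 2.43-fold in WT cells and fell 1.46-fold in KO-labelled cells to about the same level (contrast -1.83 ± 0.22, FDR 0.00794). P2ry10, a receptor for lysophospholipids, was at 76.2 and 78.9 CPM in WT against 235 and 205 CPM in KO-labelled libraries at day 0. By day 5 its values were 114 and 90.4 CPM in WT and 114 and 97.5 CPM in KO-labelled libraries. The WT rise was 1.32-fold (FDR 0.0488) and the KO-labelled fall 2.08-fold (FDR 8.53e-05), with a contrast of -1.46 ± 0.21 (FDR 0.0193).

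Adk and Pttg1 completed this group. Adk, the kinase that phosphorylates adenosine, read 132 and 117 CPM in WT and 292 and 285 CPM in KO-labelled libraries at day 0, and 144 and 116 CPM against 114 and 97.1 CPM at day 5. Its WT level was not called changed (FDR 0.724) while the KO-labelled level fell 2.73-fold (FDR 4.21e-06), a contrast of -1.52 ± 0.20 (FDR 0.0113). Pttg1 encodes securin, which holds separase inactive until anaphase. It rose 29.2-fold in WT, from 24.1 and 20.8 CPM to 579 and 742 CPM, and was at 186 and 118 CPM at day 0 and at 125 and 407 CPM at day 5 in KO-labelled libraries. The KO-labelled day 5 replicates differed more than 3-fold, and the KO-labelled change was not called (FDR 0.104). Its contrast of -4.07 ± 0.59 (FDR 0.0168) ranged from -5.17 to -3.46 when single libraries were left out.

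Promoter windows of 300 bases, 250 before the start and 50 from it on, were available from RefSeq (GRCm38.p6) for 16 of the 20 called genes, 8 higher and 8 lower. They were searched on both strands for 6 motifs of factors known in activated T cells or common at promoters, and each share over the called genes is given beside that of all 8627 matched promoters of tested genes. The AP-1 motif was searched as TGANTCA with any middle base, which is wider than the usual form with G or C there. This wider form was in 4 of the 16 against 4.71% of all. NFAT (TTTTCC) was in 2 against 21.0%, RUNX (TGTGGT) in 3 against 13.1%, and CCAAT in 6 against 39.3%. The kappa-B motif (GGG, any 2 bases, TTTCC) and the E2F motif TTTCGCGC were in none of the 16, against 1.63% and 0.684% of all. A kappa-B match ends in letters that can overlap an NFAT match. The 4 windows with a TGANTCA match are printed because this form was the one most in excess of its background share. They were chosen after the matches were seen. A match is a description of the letters only.

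The windows are those of Anxa2 (chr9:69453433-69453732, plus strand, match at -95 from the start), Klrk1 (chr6:129623815-129624114, minus strand, 17), P2ry10 (chrX:107088242-107088541, plus strand, -99, the first of 2 starts listed) and Mfsd10 (chr5:34637163-34637462, minus strand, -192). Anxa2, Klrk1 and P2ry10 belong to the genes raised at day 0 in KO-labelled cells and Mfsd10 to those higher at day 5. The middle base of the match is G in Anxa2 and C in Klrk1, as in the usual AP-1 form. It is A in P2ry10 and T in Mfsd10, which only the wider form takes in. Each is written 5′ to 3′ on the strand of its gene, with the TGANTCA match in capitals.
Anxa2: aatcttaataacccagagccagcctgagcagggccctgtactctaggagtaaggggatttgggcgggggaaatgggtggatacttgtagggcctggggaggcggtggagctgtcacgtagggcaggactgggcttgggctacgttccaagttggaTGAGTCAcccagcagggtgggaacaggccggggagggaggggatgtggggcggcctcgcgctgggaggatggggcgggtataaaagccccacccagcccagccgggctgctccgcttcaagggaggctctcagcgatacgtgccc
Klrk1: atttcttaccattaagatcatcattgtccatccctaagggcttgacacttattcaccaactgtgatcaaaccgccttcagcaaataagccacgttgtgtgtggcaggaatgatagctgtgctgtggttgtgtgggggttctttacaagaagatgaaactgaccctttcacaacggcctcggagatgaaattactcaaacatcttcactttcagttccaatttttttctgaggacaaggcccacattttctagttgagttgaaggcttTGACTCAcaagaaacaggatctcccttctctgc
P2ry10: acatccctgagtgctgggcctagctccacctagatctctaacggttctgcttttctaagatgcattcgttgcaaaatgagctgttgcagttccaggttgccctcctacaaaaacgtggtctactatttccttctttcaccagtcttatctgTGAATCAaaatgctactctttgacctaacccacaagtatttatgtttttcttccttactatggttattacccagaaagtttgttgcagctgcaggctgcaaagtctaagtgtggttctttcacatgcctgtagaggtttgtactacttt
Mfsd10: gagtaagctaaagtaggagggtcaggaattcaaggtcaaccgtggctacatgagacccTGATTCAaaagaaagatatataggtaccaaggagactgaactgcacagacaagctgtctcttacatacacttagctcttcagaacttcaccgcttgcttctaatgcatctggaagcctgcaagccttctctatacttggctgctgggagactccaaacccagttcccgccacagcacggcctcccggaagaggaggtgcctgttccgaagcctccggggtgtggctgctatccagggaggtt

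A second group started lower in the KO-labelled cells and caught up in culture. Capg, which caps the barbed ends of actin filaments, was at 33.8 and 30.5 CPM in WT and at 13.1 and 12.5 CPM in KO-labelled libraries at day 0. All day 5 libraries were close together, at 1112 and 964 CPM in WT and 1097 and 1097 CPM in KO-labelled libraries. The rise was therefore 32.2-fold in WT and 85.2-fold in KO-labelled cells, a contrast of 1.40 ± 0.18 (FDR 0.0113). Neb encodes nebulin, a giant actin-binding protein best known from the muscle sarcomere. It read 12.5 and 8.37 CPM in WT against 3.35 and 4.04 CPM in KO-labelled libraries at day 0, and 78.0 and 89.6 CPM against 125 and 108 CPM at day 5. Neb rose 7.91-fold in WT and 32.1-fold in KO-labelled cells (contrast 2.02 ± 0.32, FDR 0.0269).

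Among the called genes Oit3 had the largest contrast, 5.58 ± 0.86 (FDR 0.0269), on few counts. Its libraries held 10 and 8 counts in WT and 1 and 0 counts in KO-labelled cells at day 0, and 26 and 22 against 57 and 53 counts at day 5. These correspond to 1.79 and 1.81 CPM, 0.0858 and 0 CPM, 4.59 and 5.30 CPM, and 10.5 and 10.04 CPM. Oit3 rose 2.72-fold in WT cells, while the day 5 to day 0 ratio in KO-labelled cells was 176 with a 95% counting interval of 30.9 to 6997. With a single count at day 0 in KO-labelled cells, the fitted contrast depends on the prior count and is no bound. Its standard error was worked back from the test statistic and is narrower than this counting interval.

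Rab1b and Hacd3 fell in WT cells and rose in KO-labelled cells. Rab1b, a GTPase of transport from the endoplasmic reticulum to the Golgi, went from 149 and 149.9 CPM to 86.2 and 85.8 CPM in WT, and from 104 and 89.7 CPM to 131 and 122 CPM in KO-labelled libraries. Its genotype order was reversed between the days, but the day 5 difference was not called (FDR 0.0611). The contrast was 1.18 ± 0.19 (FDR 0.0291). Hacd3, an enzyme of very-long-chain fatty acid elongation, fell from 134 and 133 CPM to 83.2 and 95.7 CPM in WT and rose from 58.9 and 74.1 CPM to 106 and 103 CPM in KO-labelled libraries (contrast 1.24 ± 0.21, FDR 0.042). Atxn10, ataxin-10, rose in both, from 115 and 139.7 CPM to 175 and 181 CPM in WT and from 70.1 and 68.6 CPM to 205 and 211 CPM in KO-labelled libraries. Its contrast of 1.10 ± 0.19 (FDR 0.042) was the smallest of the 20, and it was called in none of the 8 fits that left out a library.

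In a final group the genotypes were not called different at day 0 and were at day 5. Tlr2 (chr3:83836272-83841767, minus strand), the receptor that senses bacterial lipoproteins, was at 8.59 and 12.4 CPM in WT and 5.49 and 7.52 CPM in KO-labelled libraries at day 0. At day 5 it was at 6.70 and 7.47 CPM in WT and at 38.3 and 54.2 CPM in KO-labelled libraries, far outside every other library. The 7.26-fold rise in KO-labelled cells (FDR 2.8e-06) was not matched by a called change in WT cells (log2 fold change -0.56, FDR 0.15), and the contrast was 3.42 ± 0.41 (FDR 0.00794). Myeloid cells also express Tlr2. Their summed markers were 113 to 138 CPM in WT and 93.9 to 115 CPM in KO-labelled libraries at day 0, and 204 to 212 CPM in WT and 271 to 274 CPM in KO-labelled libraries at day 5. Cst3 carried these sums at both days and Cd68 added to them at day 5, while Lyz2 was at most 3.39 CPM, Adgre1 and Fcgr1 were near 0 and S100a9 had no count. Their part in the Tlr2 values was not tested.

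Fam46a, a member of a family of noncanonical poly(A) polymerases, was lowered by culture much less in the KO-labelled cells. It fell from 38.3 and 32.3 CPM to 3.70 and 4.10 CPM in WT and from 23.2 and 32.3 CPM to 17.1 and 16.3 CPM in KO-labelled libraries. These are falls of 9.07-fold and 1.64-fold, with a contrast of 2.46 ± 0.35 (FDR 0.016). Chst12, a sulfotransferase of chondroitin chains, was between 56.4 and 72.6 CPM in all libraries except the KO-labelled day 5 pair, which read 143 and 144 CPM. That 2.24-fold rise gave a contrast of 1.26 ± 0.21 (FDR 0.042). Mfsd10, a transporter of the major facilitator superfamily, rose 1.64-fold in WT, from 19.3 and 18.1 CPM to 29.1 and 32.3 CPM, and 4.84-fold in KO-labelled cells, from 11.2 and 13.4 CPM to 54.8 and 63.4 CPM (contrast 1.57 ± 0.27, FDR 0.0449).

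**Figure D2:**
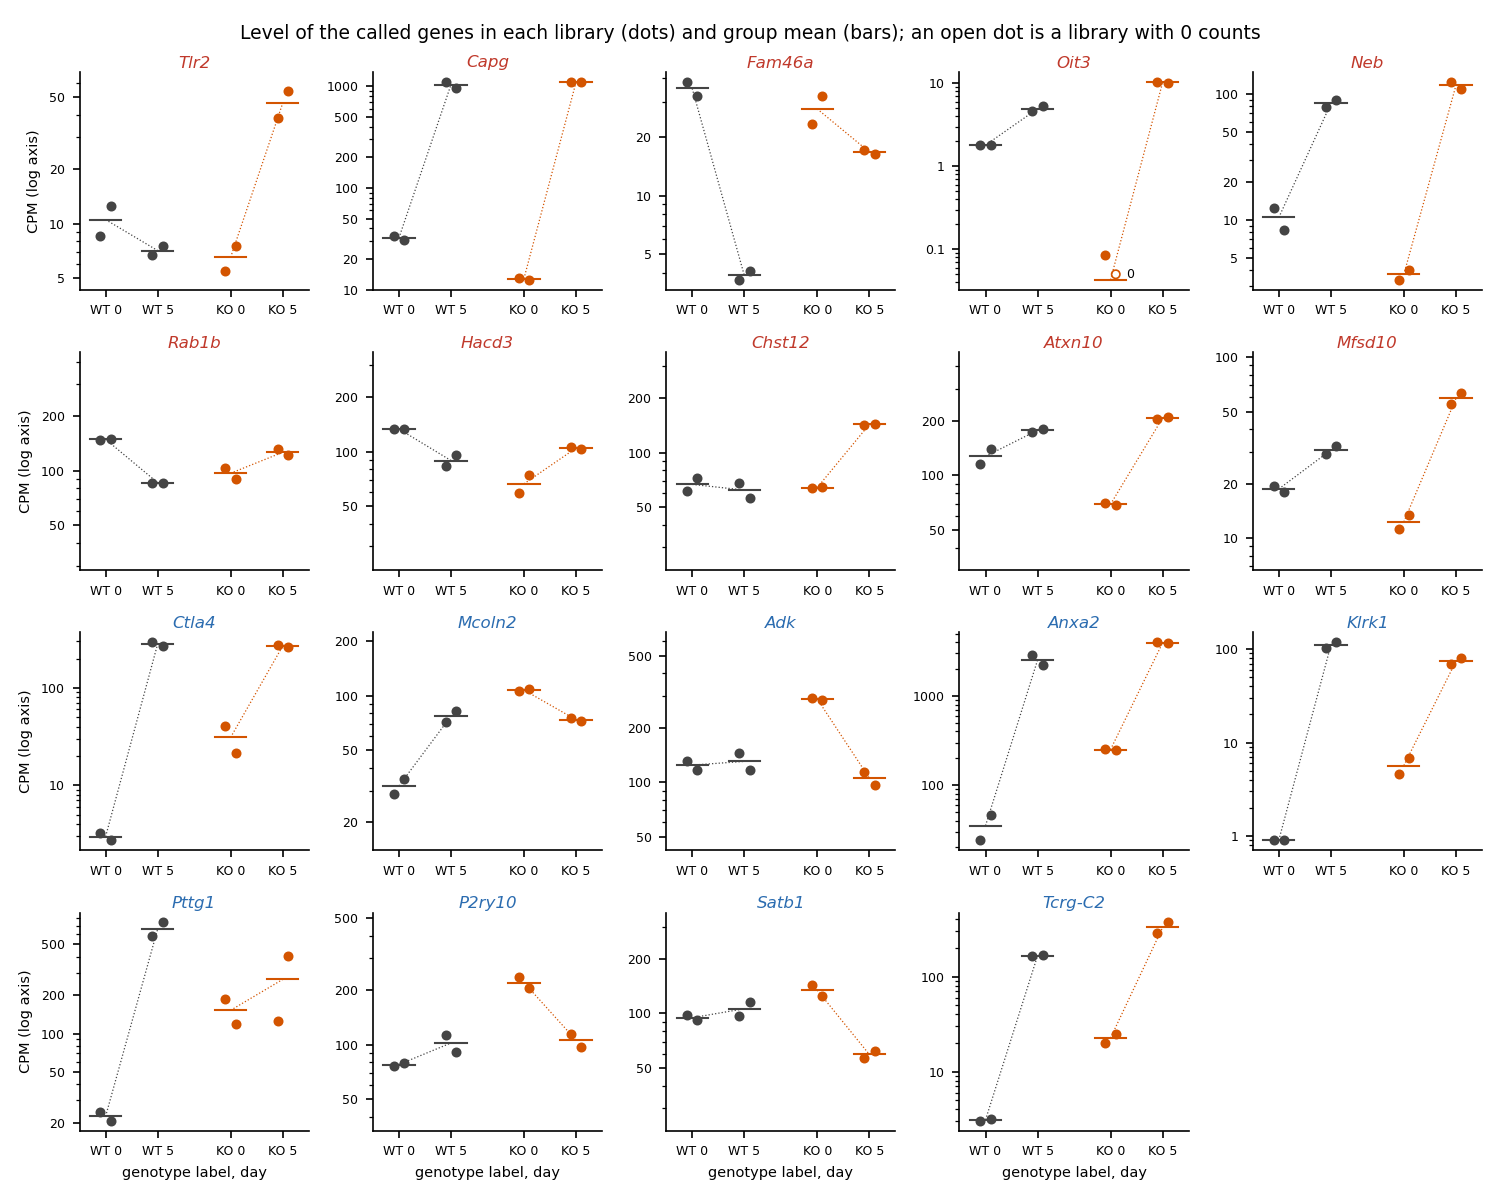
Each of the 19 panels shows 1 called gene, with the level in CPM of each library on a log axis, the 4 groups side by side and bars at the group means. The open point is the Oit3 library with 0 counts (KO-labelled day 0 replicate 2), the Ctla4 panel shows a day 0 gap that is not seen at day 5, and the Tlr2 and Fam46a panels show a gap that is seen at day 5.

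The 10 named genes nearest outside the threshold included receptors that restrain T cells. Pdcd1, which encodes PD-1, was at 5.01 and 9.04 CPM in WT and 14.8 and 10.6 CPM in KO-labelled libraries at day 0, and at 8.29 and 3.86 CPM in WT and 99.3 and 69.9 CPM in KO-labelled libraries at day 5. The KO-labelled day 5 libraries were above every other library, 13.4-fold over WT at that day (FDR 0.000241). The contrast of 2.84 ± 0.50 had an FDR of 0.0548. Cd244, the 2B4 receptor of the SLAM family, was at 0.894 and 1.36 CPM in WT and 1.29 and 1.47 CPM in KO-labelled libraries at day 0. It reached 6.53 and 4.82 CPM in WT and 55.6 and 59.1 CPM in KO-labelled libraries at day 5, a rise of 5.13-fold against 41.8-fold (contrast 3.02 ± 0.56, FDR 0.0565). At day 5 the difference between genotypes passed the test (9.94-fold, FDR 5.69e-05).

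Cd48, which encodes the ligand of 2B4, had the opposite sign. Its values were 329 and 292 CPM in WT and 623 and 509 CPM in KO-labelled libraries at day 0 (FDR 0.00665), and 434 and 366 CPM against 359.6 and 343 CPM at day 5. Its contrast was -1.06 (FDR 0.0565), with KO-labelled libraries above WT at day 0 and slightly below at day 5, where the difference was not called (FDR 0.601). Cdk17, a cyclin-dependent kinase, was at 55.1 and 49.1 CPM in WT and 72.9 and 59.6 CPM in KO-labelled libraries at day 0, and at 146 and 124 CPM against 73.6 and 70.6 CPM at day 5 (contrast -1.26, FDR 0.0548). The other genes closest to the threshold were Mettl20 (-1.29, FDR 0.0558) and, each with an FDR of 0.0565, Fam111a (-1.01), Dleu2 (-1.25), Tnip1 (1.09), Grk6 (1.07) and Hvcn1 (0.98). Tnip1 binds A20 and restrains NF-kappa-B signalling, Dleu2 is a long noncoding RNA that hosts a pair of microRNAs, and Hvcn1 is a proton channel whose exons partly overlap an antisense gene.

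Beyond single genes, 29 functional lists were described by counts and medians, which are no tests. The shares over all tested genes to set beside the counts of members are 0.159% called, and 6.92% higher and 5.48% lower at an unadjusted p under 0.05. The median contrast lay within 0.35 of 0 in 25 of them, against a median of 0.02 over all tested genes. The other 4 were the inhibitory receptors (0.74), the T-cell cytokines (-0.88), the gamma-delta T-cell receptor genes (-1.70) and the interferon-stimulated genes (-0.39).

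Of 16 tested inhibitory receptors and ligands, 10 had a contrast above 0 and 6 below, 1 was called (Ctla4, lower), and at an unadjusted p under 0.05 there were 9 higher and 2 lower. The median was 0.74, with quartiles of -0.33 and 1.69, and between 0.45 and 0.84 when single libraries were left out. The mean centred log2 CPM of the list was -0.88 and -0.97 in WT and -0.77 and -0.80 in KO-labelled libraries at day 0, and 0.64 and 0.37 in WT and 1.29 and 1.11 in KO-labelled libraries at day 5. The list mean was thus 1.43 higher at day 5 in WT and 1.98 higher in KO-labelled cells on that scale, a difference of 0.55 where replicates of a group lay up to 0.27 apart. Ctla4 and Pdcd1, the best known members, had opposite signs. Btla, a receptor for HVEM, also went against the list, at 145 and 135 CPM in WT and 125 and 115 CPM in KO-labelled libraries at day 0, and at 65.1 and 75.7 CPM against 35.1 and 37.7 CPM at day 5 (contrast -0.73, FDR 0.187).

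Among the T-cell cytokines 14 of 27 listed were tested, 6 above 0 and 8 below, with 1 higher and 5 lower at an unadjusted p under 0.05 and none called. Their median of -0.88 rested on low counts in part, since 3 members had a group with no count. It was between -1.005 and -0.03 when single libraries were left out, the latter without KO-labelled day 0 replicate 1, and -0.27 when all libraries were thinned to the smallest total. Il2, the T-cell growth factor, had 3 counts in the WT day 0 libraries together, at 0.179 and 0.452 CPM, against 5.83 and 9.18 CPM in KO-labelled libraries (FDR 0.00236). At day 5 it was at 1.76 and 1.45 CPM in WT and 3.49 and 4.17 CPM in KO-labelled libraries, and the contrast was -3.29 (FDR 0.161). The day 5 to day 0 ratio of Il2 in WT was 5.44 with a counting interval of 1.56 to 29.1. Ccl5, a chemokine of effector and memory cells, read 16.3 and 10.9 CPM against 68.8 and 122 CPM at day 0 and 199 and 116 CPM against 472 and 235 CPM at day 5 (contrast -1.62, FDR 0.247). Tnfsf14, the ligand LIGHT, had a contrast of -2.73 (FDR 0.144), and Il16, a chemoattractant made by resting T cells, one of 0.59 (FDR 0.214).

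Of the gamma-delta T-cell receptor genes 6 were tested, 5 of them below 0, with 4 lower at an unadjusted p under 0.05 and Tcrg-C2 called. Tcrg-C4 was at 4.11 and 6.56 CPM in WT and 52.8 and 50.3 CPM in KO-labelled libraries at day 0, and at 47.1 and 29.2 CPM against 109 and 121 CPM at day 5 (contrast -1.72, FDR 0.0878). Tcrg-C1 was at 1.79 and 1.81 CPM against 5.06 and 7.34 CPM at day 0 and at 107 and 79.5 CPM against 87.7 and 98.1 CPM at day 5 (contrast -1.73, FDR 0.122). Trgv2, a variable segment, had a contrast of -1.68 (FDR 0.181). All of these were higher in the KO-labelled day 0 libraries than in WT.

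Of 36 interferon-stimulated genes 30 had a contrast below 0, with 6 lower and 1 higher at an unadjusted p under 0.05 and none called. Their median was -0.39, with a range of -0.74 to -0.02 over the fits without a library. The list score differed by -0.42 between the genotypes' responses, less than the 0.76 by which replicates of a group lay apart. Ifit3, an interferon-induced protein, shows that spread, at 61.4 and 91.1 CPM in WT and 142 and 96.5 CPM in KO-labelled libraries at day 0, and 16.6 and 4.34 CPM against 7.36 and 3.79 CPM at day 5 (contrast -1.62, FDR 0.328, or -0.29 without WT day 5 replicate 1). Samhd1, which hydrolyses deoxynucleotides, was steadier, at 636 and 639.7 CPM against 1108 and 1024 CPM at day 0 and 1687 and 1659 CPM against 1756 and 1384 CPM at day 5 (contrast -0.83, FDR 0.09). Irgm1, an immunity-related GTPase, had a contrast of -1.21 (FDR 0.112) and Stat2, a transducer of interferon signals, one of 0.73 (FDR 0.253).

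**Figure D3:**
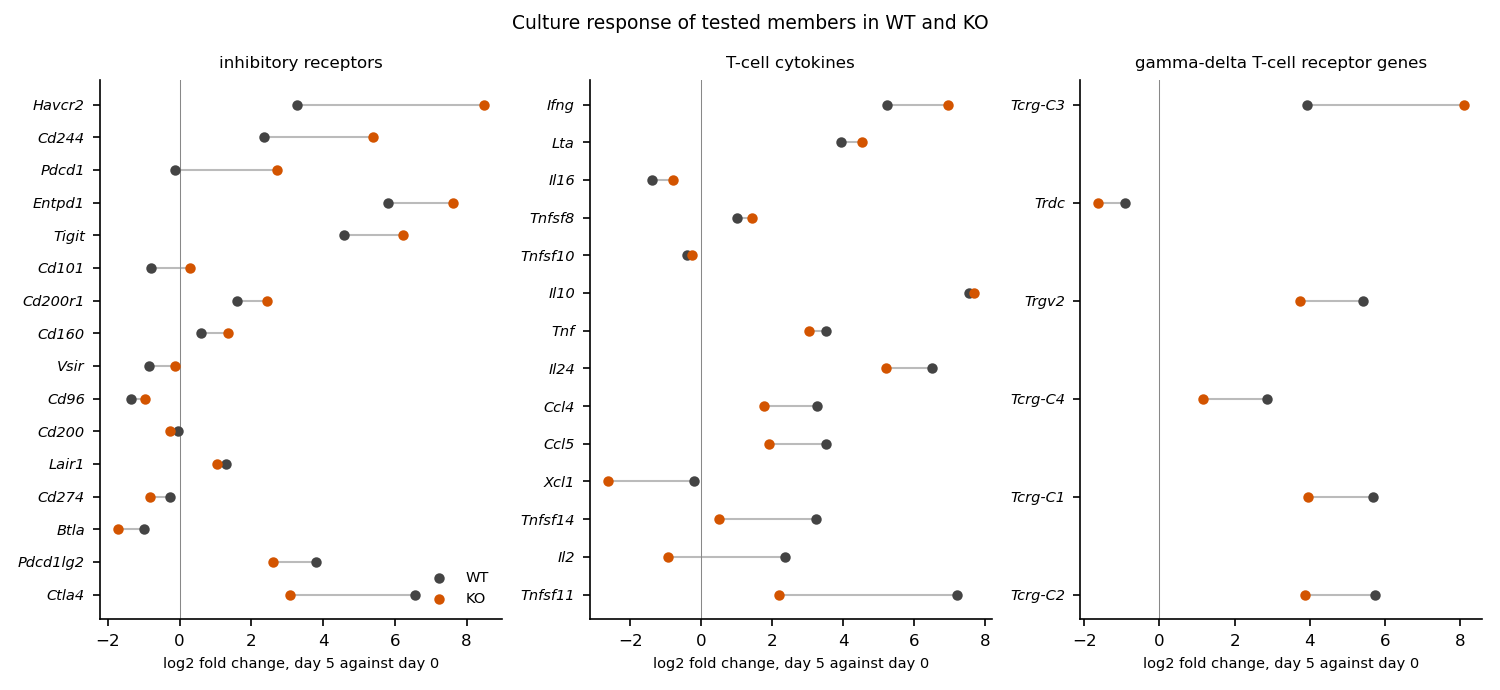
The culture response (log2 fold change, day 5 minus day 0) of each tested member is shown for WT and for KO-labelled cells in 3 lists, the inhibitory receptors, the T-cell cytokines and the gamma-delta T-cell receptor genes. Within the inhibitory receptors the WT response of Ctla4 (6.56) is above its KO-labelled response (3.08), while the KO-labelled response of Pdcd1 (2.71) is above that of WT (-0.13), and fitted values of genes with a group near 0 depend on the prior count.

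Lists of T-cell identity and signalling shifted less. Of 26 genes of CD3, CD8 and proximal signalling, 21 were above 0 (median 0.20), none was called, and 5 were higher and 1 lower at an unadjusted p under 0.05. That median was 0.10 with the offset for GC content and length and 0.11 without KO-labelled day 0 replicate 2. Cd8a, the co-receptor chain that defines these cells, was at 1455 and 1405 CPM in WT and 1377 and 1386 CPM in KO-labelled libraries at day 0, and at 832 and 734 CPM against 1216 and 1164 CPM at day 5 (contrast 0.65, FDR 0.122). Among 26 naive and quiescence genes 18 were below 0 (median -0.16, or -0.30 to -0.08 over the fits without a library), and Satb1 was among the called. Il7r, the interleukin-7 receptor chain, went the other way, at 986 and 1006 CPM against 1356 and 1394 CPM at day 0 and 18.3 and 29.6 CPM against 49.5 and 55.1 CPM at day 5 (contrast 0.68, FDR 0.286, or 0.36 without WT day 5 replicate 1). The 25 effector and exhaustion transcription factors had a median of -0.31, or -0.10 without WT day 0 replicate 1, with 17 below 0 and none called.

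The cytotoxic molecules had a median of 0.02 over 15 genes, with 4 higher and 3 lower at an unadjusted p under 0.05. Prf1, which encodes the pore-forming perforin, was at 138 and 179.5 CPM against 152 and 134 CPM at day 0 and at 86.1 and 61.0 CPM against 137 and 121 CPM at day 5 (contrast 0.96, FDR 0.173). Serpina3g, a serine protease inhibitor of activated lymphocytes, held 3 counts in WT at day 0, at 0.179 and 0.452 CPM, against 19.5 and 9.18 CPM in KO-labelled libraries. At day 5 it was at 458 and 213 CPM in WT and 876 and 759 CPM in KO-labelled libraries (contrast -4.27, FDR 0.123), with KO-labelled libraries higher on both days. Of 18 regulatory T-cell genes 10 were above 0 (median 0.08, or 0.29 with 2 genes that had a group at 0 counts set at their bound), and Ctla4 and Capg were called, in opposite directions. Ikzf2, which encodes Helios, was at 15.6 and 15.6 CPM in WT and at 77.3 and 66.2 CPM in KO-labelled libraries at day 0 (4.61-fold, FDR 0.00198), and at 13.8 and 28.2 CPM against 17.1 and 25.6 CPM at day 5. Like Ctla4, it had a day 0 gap that was not seen at day 5, with a contrast of -2.16 (FDR 0.0597).

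Receptors for cytokines were balanced, 17 above and 17 below 0 of 34 (median -0.01). Ifngr1, a chain of the interferon-gamma receptor, was at 476 and 561 CPM against 1352 and 1127 CPM at day 0 and at 1809.8 and 1719.6 CPM against 2319 and 2023 CPM at day 5, a contrast of -0.96 (FDR 0.0565). Of the killer cell lectin-like genes 5 of 19 listed were tested and Klrk1 was called, with a median of 0.22 that ranged from -1.02 to 0.70 when single libraries were left out. Klrd1, the CD94 chain that pairs with NKG2 receptors, was lower in KO-labelled cells on both days, at 144 and 158 CPM against 47.7 and 46.1 CPM and at 101 and 102 CPM against 52.6 and 55.7 CPM (contrast 0.78, FDR 0.139). The median was -0.12 over 17 costimulatory molecules, 0.18 over 26 immediate early genes, 0.18 over 19 integrin and adhesion genes, -0.15 over 15 Toll-like and other innate receptor genes and 0.15 over 21 annexin, S100 and cytoskeleton genes. The Toll-like receptor list held 1 call (Tlr2), and the annexin and cytoskeleton list 2 of opposite direction (Anxa2 and Capg). With the offset for GC content and length these medians were 0.01 for the immediate early genes, 0.04 for adhesion, -0.30 for the innate receptors and 0.02 for the annexin list. Over the fits without a library the costimulatory median ranged from -0.19 to -0.01 and that of adhesion from 0.03 to 0.32.

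With all libraries included, no list of growth, division or metabolism had a median contrast above 0.35 in size. The 49 mitosis genes had a median culture response of 6.10 in WT and 6.50 in KO-labelled cells on the log2 scale and a median contrast of 0.14, or -0.07 without KO-labelled day 0 replicate 2, with Pttg1 the 1 call. Birc5, survivin, rose from 3.04 and 2.71 CPM to 594 and 553 CPM in WT and from 1.03 and 0.183 CPM to 563 and 586 CPM in KO-labelled libraries (contrast 1.92, FDR 0.123). The KO-labelled day 0 libraries held 12 and 1 counts of Birc5, and the contrast was 3.81 without the first of them and 1.43 without the second. Medians were 0.05 over 58 replication genes, -0.06 over 75 oxidative phosphorylation genes and 0.08 over 44 ribosome biogenesis genes. Over 31 proteasome genes the median was -0.05, and over 33 chaperone genes 0.05. It was 0.10 over 79 ribosomal proteins and 0.13 over 34 genes of sterol and fatty acid synthesis. With the offset for GC content and length these last medians were 0.01 and 0.03. The ribosomal protein median ranged from 0.03 to 0.15 over the fits without a library. None of the 7 lists held a call. Of 29 glycolysis genes 21 were above 0 (median 0.31), with 5 higher and 1 lower at an unadjusted p under 0.05. That median was 0.14 with the offset for GC content and length. Over the fits without a library it ranged from 0.05, without WT day 5 replicate 2, to 0.47. Hk1, hexokinase 1, was at 79.2 and 109.9 CPM against 102 and 88.1 CPM at day 0 and at 85.0 and 61.4 CPM against 139 and 194 CPM at day 5 (contrast 1.17, FDR 0.153). The 20 genes of the Bcl2 family and death receptors had a median of 0.26 (0.10 to 0.35 over the fits without a library) and the 42 chromatin genes one of -0.14 (-0.22 to -0.06), with Satb1 called. Ezh1, a histone methyltransferase of Polycomb complexes, had a contrast of 1.13 (FDR 0.0578), its WT level falling from 104 and 114 CPM to 44.1 and 41.9 CPM while KO-labelled libraries read 98.7 and 118 CPM and then 86.1 and 101 CPM.

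The 24 genes of MHC class I and antigen processing were balanced, 12 above and 12 below 0 (median -0.04). In the list of the Ifi200 family of interferon-inducible DNA-binding proteins, which also held Ifi47, an immunity-related GTPase outside that family, the 7 tested genes had a median of -0.20, or -0.05 with 1 gene that had a group at 0 counts set at its bound and 0.07 with an offset for GC content and length. The family members are similar in sequence, so the split of reads among them is uncertain. Ifi204 was near 0 in the KO-labelled day 0 libraries, at 27.5 and 28.04 CPM in WT against 0.172 and 0.183 CPM at day 0 (FDR 6.17e-06) and at 16.8 and 17.8 CPM against 1.66 and 0.568 CPM at day 5 (FDR 0.000332). Its contrast of 3.22 did not pass the test (FDR 0.123). The medians of the cytotoxic molecules, cytokine receptors, regulatory T-cell genes, ribosome biogenesis and proteasome genes, all within 0.1 of 0, changed sign with that offset or with scaling to library totals. Leaving out single libraries also turned the sign of these and of the killer lectin-like, mitosis, replication, oxidative phosphorylation, chaperone and MHC class I medians. Setting genes with a group at 0 counts at their bound left the medians of the inhibitory receptors, cytokines and gamma-delta genes as given and moved no other by more than 0.1 except those named.

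**Figure D4:**
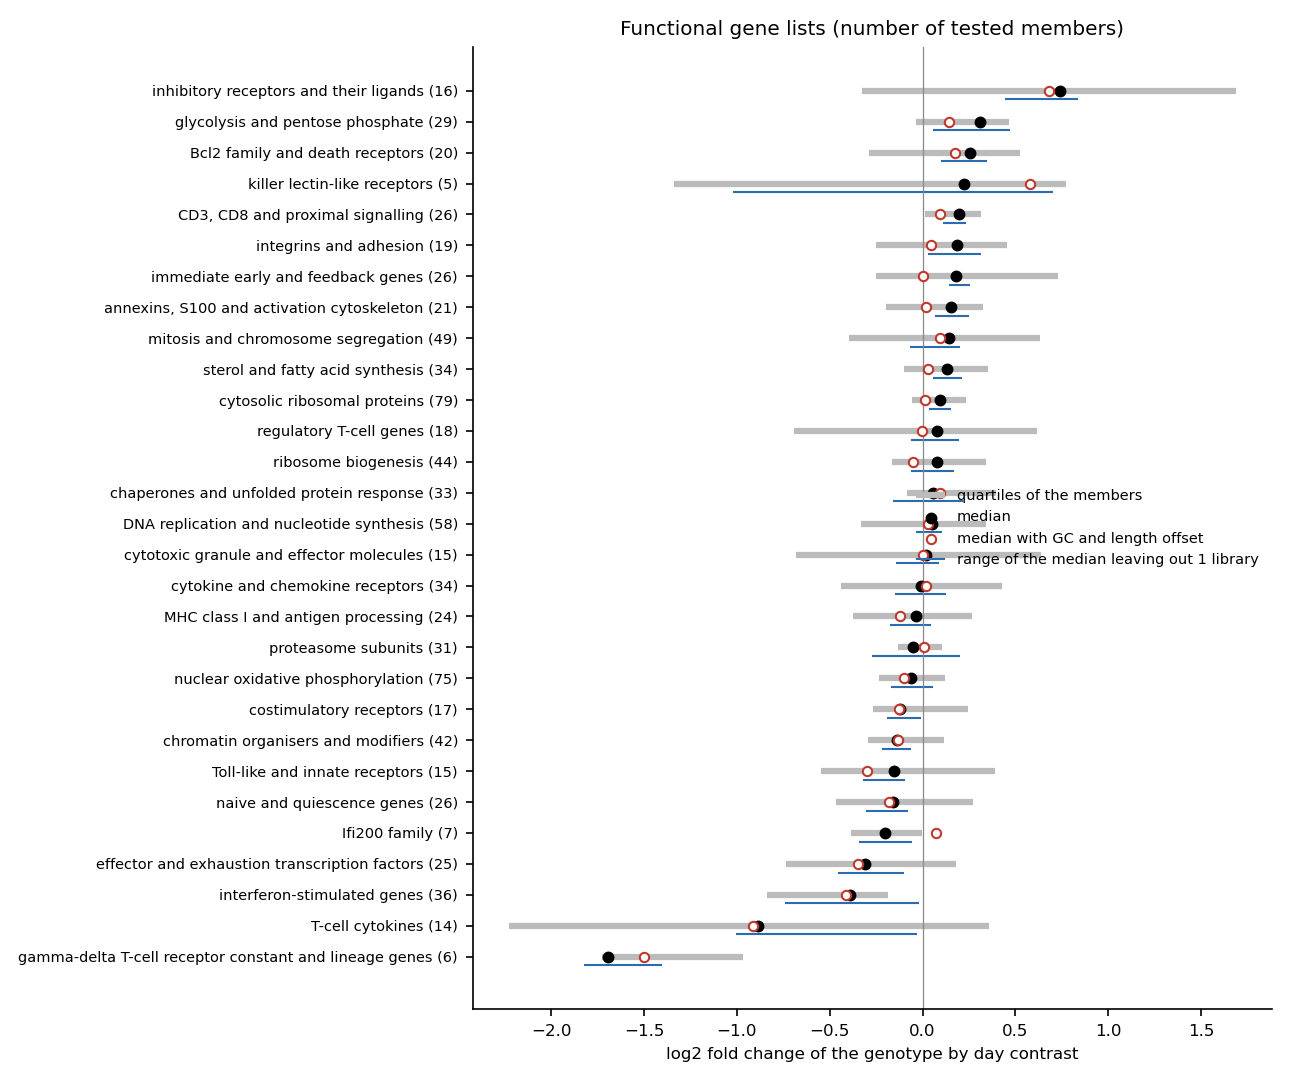
Each row is 1 of 29 functional lists, with the median contrast of its tested genes (log2, x axis), the quartiles, the median after an offset for GC content and length, and the range of the median over the fits without 1 library. The inhibitory receptors (0.74) lie farthest to the right and the gamma-delta T-cell receptor genes (-1.70) farthest to the left.

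The contrast moved with the GC content of the genes. Across 12474 tested genes, which are not independent replicates, Spearman's rho between contrast and exon GC content was 0.333, against 0.304 for the day 5 difference, -0.150 for the day 0 difference and -0.128 to 0.0485 for the differences between replicates. The median contrast was -0.26 in the tenth of genes lowest in GC and 0.30 in the highest. In the lowest bin 15 genes were higher and 188 lower at an unadjusted p under 0.05, and in the highest bin 179 were higher and 7 lower. The called genes followed this order, with a median GC content of 50.4% for those with the higher and 43.0% for those with the lower response, against 49.0% over all tested genes.

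With an offset for GC content and length in each library, rho was 0.001 and 12 genes were called, 5 higher and 7 lower. Of the 20, 11 were among them, including Tlr2, Fam46a, Oit3, Neb, Hacd3, Ctla4, Mcoln2, Anxa2, Klrk1 and Pttg1. The other 9 passed no longer but kept their sign, with contrasts of 0.87 to 1.22 where higher and -1.64 to -1.15 where lower, and with an FDR of 0.0639 for Capg, 0.0841 for Adk, Satb1 and Tcrg-C2, 0.0793 for Atxn10, 0.102 for P2ry10, 0.114 for Chst12, 0.162 for Mfsd10 and 0.19 for Rab1b. The part of library preparation in this relation was not tested.

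**Figure D5:**
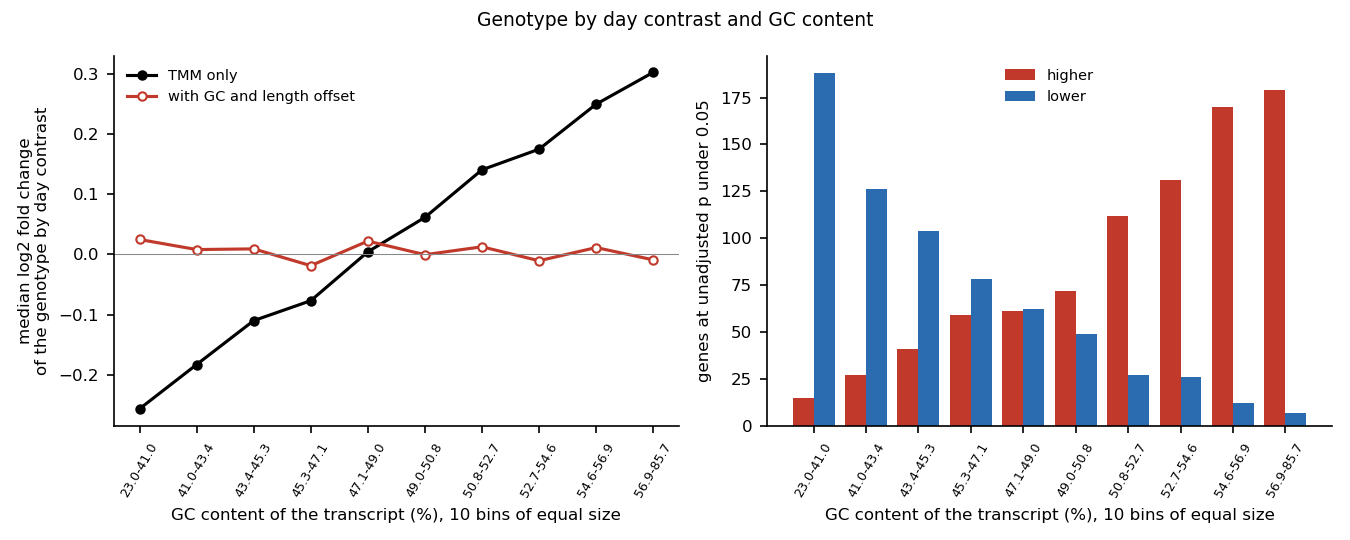
The left panel shows the median contrast (log2) in 10 equal bins of exon GC content, without and with the offset, and the right panel the number of genes in each bin at an unadjusted p under 0.05, higher and lower. The median rises from -0.26 to 0.30 without the offset, and the lowest bin holds 15 higher and 188 lower genes.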

How the data were processed

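RNA-seq counts per gene, unnormalised, were deposited by the authors for 8 libraries, 2 per group. The submitters' processing notes name HISAT2 2.1.0, HTSeq 0.11.1 and the mm10 (GRCm38) build. Which annotation was counted, and whether by strand, is not given in the sources used here. Rows that name no gene were dropped. Between 21.2% and 24.5% of records were assigned to genes, and 27.5% to 33.7% overlapped no feature.

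Genes passing filterByExpr were fitted with edgeR 4.0.16 (R 4.3.3, TMM, 1 mean per group, quasi-likelihood F-test, 4 residual degrees of freedom), with Benjamini-Hochberg adjustment over all 12597 genes and a threshold of 0.05. Fold changes are from this fit, and levels are CPM with TMM scaling. Each standard error was worked back as the log2 fold change divided by the square root of its F statistic. It can be too narrow where counts are few. The procedure was also run on simulated counts with a spread set by expression level alone and no GC relation of the contrast. That run does not test these calls. CPM compares a gene between libraries and not genes with each other. Intervals cover counting error only. Coordinates and GC content came from the GENCODE annotation of GRCm38.

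Named genes were Satb1, every called gene with an assigned name (19 of the 20, as 1 is not reported here), the 10 nearest outside the threshold, and up to 4 genes per described list with the lowest unadjusted p. The members, lists and contrast were chosen with earlier results of these data known. Alternatives were other scalings, filters, tests (DESeq2 1.42.0, limma 3.58.1), offsets, blocks and leaving out each library.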

Additional observations from a re-analysis of the deposited data

Results flagged for a closer look

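The culture response of 19 named genes differed between the genotypes by the test of the difference itself (edgeR quasi-likelihood, adjusted over all 12597 genes). On the log2 scale the KO-labelled response exceeded that of WT by 1.10 for Atxn10, 1.18 for Rab1b, 1.24 for Hacd3, 1.26 for Chst12, 1.40 for Capg, 1.57 for Mfsd10, 2.02 for Neb, 2.46 for Fam46a, 3.42 for Tlr2 and 5.58 for Oit3. The difference was -1.34 for Satb1, -1.46 for P2ry10, -1.52 for Adk, -1.83 for Mcoln2, -1.85 for Tcrg-C2, -2.21 for Anxa2, -3.15 for Klrk1, -3.47 for Ctla4 and -4.07 for Pttg1. For Satb1, the targeted gene, KO-labelled values at day 0 lay above those of WT, but that difference was not called (FDR 0.125). Counts over the whole gene do not show whether the floxed exons were lost.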

How the results depend on the processing

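The genotype by day contrast (the interaction) had 20 calls. There were 154 without a filter on low counts, 144 with DESeq2 (19 of the 20 among them), 12 with the offset for GC content and length, and 0 with a minimum change of 2-fold (edgeR glmTreat, 229 at an unadjusted p under 0.05). Thinning all libraries to the smallest total left 15, with 13 of the 20 among them and without Oit3, Neb, Hacd3, Chst12, Mfsd10, Satb1 and Tcrg-C2. Leaving out single libraries gave 0 to 41 calls, with 0 (edgeR, 1413 at an unadjusted p under 0.05) without WT day 0 replicate 1. The day 0 genotype difference had 227 calls, 434 without the filter and 38 (without WT day 0 replicate 1) to 276 when a library was left out. At day 5 there were 205 calls, 418 without the filter, 350 with DESeq2, 120 with the offset and 32 (without KO-labelled day 5 replicate 2) to 249 when a library was left out. The cause of these shifts was not tested. The labels pair samples by a number only. With the replicate number as a block there were 29 calls, and with the block within genotype 55, each holding all 20. Deviations of same-numbered libraries correlated at 0.118 between days in WT and 0.228 in KO-labelled cells, and between -0.074 and 0.004 otherwise. The 20 genes kept their sign in all 420 alternative values and were called in 279. Counts for both culture responses stayed within 1.5 times.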
